A study of Homo sapiens with 22 samples.

Results

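Late Jun regions without an H3K27ac peak are 20937 stretches of the genome in K562 cells where Jun gained a peak by 72 h of PMA and where no library placed a peak of the acetyl mark H3K27ac. They were chosen by the authors' peak lists: a region of the deposited Jun table on chromosomes 1 to 22 or X had to overlap, by at least 1 bp, a Jun peak of both 72 h libraries, no Jun peak at 0 or 6 h, and no peak of any of the 6 H3K27ac libraries. These members made up 15.2% of the 137719 Jun regions on those chromosomes and 57.3% of the 36516 late Jun regions, meaning all that met the Jun conditions whatever their acetylation. K562 is a human leukemia line, here labelled wild type. Cultures received 25 nM PMA, a phorbol ester that pushes the line toward megakaryocytes, for 0, 6 or 72 h. Chromatin was mapped with antibodies against Jun, H3K27ac and CTCF at all 3 times and against Rad21 at 0 and 72 h, giving 22 libraries in 11 groups of 2. The titles abbreviate the assay as CNR, read here as CUT&RUN, in which an antibody-directed nuclease cuts out the DNA beside its target.

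Jun pairs with Fos, other Jun proteins or ATF proteins to form AP-1, which binds the palindromic letters TGANTCA and is induced within hours of protein kinase C activation by PMA. Acetylation of lysine 27 on histone H3 is laid down by the coactivators p300 and CBP and marks active promoters and enhancers. Rad21 is the clamp subunit of cohesin, the ring that extrudes chromatin loops, and CTCF is the zinc finger protein at which cohesin often stops. The labels do not say whether the libraries of a group came from separate cultures, so p-values measure the spread between these libraries, which may be technical. A single cell line was used.

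A set of 3 other classes of Jun region was set beside the members. Newly acetylated late Jun regions (8302, 22.7% of late Jun regions) carried an H3K27ac peak in both 72 h libraries and none earlier. Previously acetylated late Jun regions (1727, 4.73%) carried one in both 0 h libraries. A further 1211 regions had a Jun peak in all 6 Jun libraries and no H3K27ac peak in any.

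The sequences below are those of promoter windows that held Jun summits of members. No genome of the tables' build was used here, so only members at annotated start sites could be read, through a RefSeq table (GRCh38.p14) of promoter windows that run from 250 bases before to 50 after each start, 300 bases in all. Both 72 h Jun summits of 119 members fell inside 129 of the 34961 windows. The AP-1 letters TGANTCA, searched on both strands, occurred in 69 of those 129 windows (53.5%) and in 7.68% of all windows. The 4 with these letters and the strongest Jun are printed 5′ to 3′ along the gene's strand with the AP-1 letters in capitals, followed by the strongest without them. The choice of windows was made after the values were seen.

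LOC105376016 (long non-coding RNA), chr9:32738721-32739020, plus strand: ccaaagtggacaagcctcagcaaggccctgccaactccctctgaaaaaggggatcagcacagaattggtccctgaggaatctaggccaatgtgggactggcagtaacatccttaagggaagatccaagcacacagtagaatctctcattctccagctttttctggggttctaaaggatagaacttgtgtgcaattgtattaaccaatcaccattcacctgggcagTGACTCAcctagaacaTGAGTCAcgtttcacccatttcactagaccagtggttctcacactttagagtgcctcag
LOC105374243 (long non-coding RNA), chr3:182182713-182183012, minus strand: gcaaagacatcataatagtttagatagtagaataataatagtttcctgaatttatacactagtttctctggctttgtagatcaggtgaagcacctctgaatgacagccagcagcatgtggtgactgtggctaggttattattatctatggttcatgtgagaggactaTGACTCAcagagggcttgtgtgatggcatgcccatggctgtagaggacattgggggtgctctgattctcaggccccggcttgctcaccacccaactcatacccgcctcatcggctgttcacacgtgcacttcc
TTC39C (protein-coding), chr18:24113077-24113376, plus strand: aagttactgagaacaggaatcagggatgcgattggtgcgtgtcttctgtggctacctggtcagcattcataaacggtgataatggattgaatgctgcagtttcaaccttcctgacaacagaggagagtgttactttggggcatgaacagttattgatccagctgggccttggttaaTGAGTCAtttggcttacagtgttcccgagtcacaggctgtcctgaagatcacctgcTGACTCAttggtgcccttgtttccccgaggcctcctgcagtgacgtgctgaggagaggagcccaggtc
IL10 (protein-coding), chr1:206770554-206770853, minus strand: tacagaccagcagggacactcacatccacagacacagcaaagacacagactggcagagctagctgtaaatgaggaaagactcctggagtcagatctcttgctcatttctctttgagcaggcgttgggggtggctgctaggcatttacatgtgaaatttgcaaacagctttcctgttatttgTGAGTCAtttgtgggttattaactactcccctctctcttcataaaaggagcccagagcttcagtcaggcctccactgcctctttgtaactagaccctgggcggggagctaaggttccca
ACTBL2 (protein-coding), chr5:57482762-57483061, minus strand: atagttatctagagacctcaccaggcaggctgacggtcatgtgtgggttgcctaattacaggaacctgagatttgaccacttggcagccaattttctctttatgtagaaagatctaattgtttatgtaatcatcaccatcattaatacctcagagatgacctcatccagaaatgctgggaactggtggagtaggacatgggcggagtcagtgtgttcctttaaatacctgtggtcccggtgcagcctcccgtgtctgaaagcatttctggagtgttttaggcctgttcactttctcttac

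At the IL10 promoter, whose gene encodes an anti-inflammatory cytokine, the member (chr1:206770449-206770877) held 19 and 15 Jun reads at 0 h, 9 and 19 at 6 h, then 153 and 151 at 72 h. In CPM (counts scaled to library size, from the deposited counts with TMM) these were 2.77 and 2.15, 2.04 and 3.47, then 7.28 and 6.41. Both 72 h libraries lay above the other 4, and the nearest H3K27ac peak of any library was 3242 bp away. TTC39C, which encodes a tetratricopeptide repeat protein, had 14 and 8 Jun reads at 0 h, 14 and 28 at 6 h, then 131 and 178 at 72 h. Its CPM went from 2.04 and 1.15 at 0 h to 6.23 and 7.55 at 72 h. LOC105376016 went from 11 and 20 reads at 0 h to 197 and 235 at 72 h, with its nearest H3K27ac peak 65496 bp away. In CPM it went from 1.6 and 2.87 to 9.37 and 9.97. The window of ACTBL2, an actin-like gene, has no AP-1 letters although its member went from 10 and 24 reads to 197 and 246, higher than at IL10. Its CPM went from 1.46 and 3.44 to 9.37 and 10.4. None of these 5 starts overlapped an H3K27ac peak shared by both libraries at 0 or 72 h.

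Other letters differed less between these promoters and all promoters. Where AP-1 letters were found, the nearest copy lay a median of 56 bp from the mean of both summits, and within 50 bp in 31 of 69 pairs of window and member. The cAMP response element TGACGTCA, which ATF and CREB proteins bind, was in 0.775% of the 129 windows and 1.85% of all. The GATA letters AGATAA were in 15.5% against 10.3%, and CCCTC, from the centre of the CTCF motif, in 71.3% of both. Median GC content was 52% in these windows and 58.7% in all. Counting any window that a region overlapped, TGANTCA was in 120 of 305 windows (39.3%) for the members, 57 of 167 (34.1%) for newly acetylated late Jun regions and 11.5% of 3241 for Jun regions with a peak in every library, with or without acetylation. A match of letters is a description, not a binding site.

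Jun at the members was low to begin with and moderate at 72 h. The median member held 12 and 12 Jun reads in the 0 h libraries, 11 and 12 at 6 h, then 70 and 80 at 72 h. As CPM the medians were 1.75 and 1.72, 2.5 and 2.19, and 3.33 and 3.4. The 72 h libraries were thus the highest of the 6, and the 6 h libraries lay between. Newly acetylated late Jun regions started near the same level (2.19 and 2.15) and ended higher, at 6.23 and 6.28. Jun regions with a peak at every time and no H3K27ac peak ran the other way, from 13.3 and 13.3 at 0 h to 6.28 and 6.03 at 72 h.

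**Figure D1:**
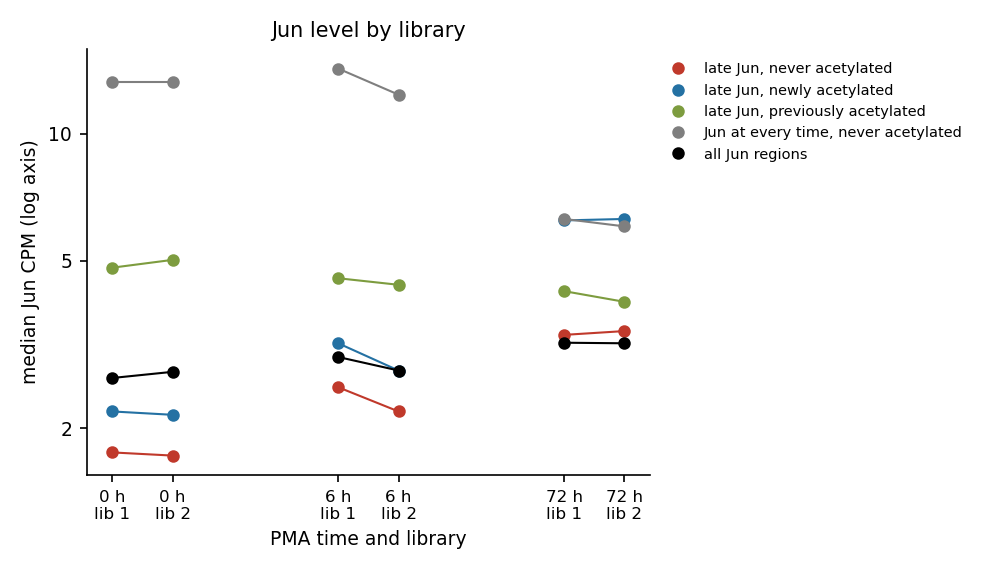
Median Jun level (CPM, log axis) in each of the 6 Jun libraries for the members and 4 comparison classes; each point is the median over the regions of a class in 1 library and lines join libraries of the same time. The members go from 1.75 and 1.72 at 0 h to 3.33 and 3.4 at 72 h and lie below the newly acetylated regions at each time.

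The rule used Jun at 72 against 0 h, so the counts that follow describe the choice and test nothing. Of 20935 members tested, 10433 (49.8%) were called higher at 72 than at 0 h and 252 (1.2%) lower by edgeR's quasi-likelihood test with a Benjamini-Hochberg adjusted p under 0.05, against 28% higher and 25.7% lower over the whole Jun table. At 6 against 0 h, 11.5% were called higher and 1.55% lower, against 13.1% and 12.2%. The median log2 fold change at 72 h was 1.02 at members and 1.55 at newly acetylated regions. With DESeq2 26.6% of members were called higher against 16.9% of all, with total counts as the scale 76.4% against 44.3%, and without the second 72 h library 23.6% against 15.3%. In 15798 members (75.5%) both 72 h libraries lay above both 0 h libraries, and in 10814 (51.7%) above all 4 earlier ones. The 72 h Jun libraries also held more reads than the earlier ones and a smaller share on the mitochondrial chromosome, 9.07% and 8.58% against 24% and 27.7% at 0 h, and the part of depth in the gain of peaks was not tested.

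The peaks that admitted a member were small and less sharply placed than lasting ones, as were those of the other late regions. The authors' fold enrichment had a median of 5.07 and 5.52 in the 72 h libraries, and −log10 q of 8.55 and 10.5. Summits of the 2 libraries lay a median of 58 bp apart at members and 20 bp apart at regions with Jun at every time, and within 50 bp of each other in 45.8% and 72.5%. For newly acetylated late regions these were 50 bp and 50.1%, and for previously acetylated ones 70 bp and 39%, with a fold enrichment of 4.36 and 4.55. The members had a median width of 493 bp, with quartiles of 430 and 578 bp. Just inside the limit was a member within FRMD4A, which encodes a scaffold protein of cell polarity, at chr10:13687983-13688290. Its weaker peak had a −log10 q of 2.01, and its 72 h CPM was 2.09 and 1.4, against 1.02 and 1.58 at 0 h. Just outside were 18545 regions with a peak in only 1 of the 72 h libraries, whose median Jun CPM was 1.31 and 1.15 before PMA and 1.71 and 1.83 at 72 h.

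The 5 members with the highest Jun CPM at 72 h all lay at the start of chromosome 21, beside or in copies of the ribosomal RNA genes. The strongest, chr21:8432871-8433684 in RNA45SN1, the 45S pre-ribosomal RNA, had a Jun CPM of 84.7 and 60.1 at 0 h, 114 and 42.3 at 6 h, then 60.1 and 44.9 at 72 h. Its libraries overlapped between times, and it had entered through a peak of low enrichment (1.78 and 1.97). The second, chr21:8454411-8455231, was lower at 72 h (43.2 and 37.2) than at 0 h (68.3 and 66.6). Reads from near-identical ribosomal copies can be placed at any of them, so these values are uncertain. In all, 59 members lay on chromosome 21 before position 10 Mb.

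Away from those repeats the strongest members with every 72 h library above every earlier one, named after the values were seen, gained Jun in quite different backgrounds. PTPRM, a receptor tyrosine phosphatase of cell contacts, held the first at chr18:8319572-8320574. Its Jun reads numbered 8 and 14 before PMA, 19 and 22 after 6 h, then 571 and 656, which is a log2 change of 4.10 ± 0.27 (SE). The groups were far apart, and the nearest H3K27ac peak was 2879 bp away. The next, chr22:21709409-21710565 within YPEL1, already had 94 and 72 reads at 0 h and reached 574 and 595. Scaled for depth its rise was smaller, from a CPM of 13.7 and 10.3 to 27.3 and 25.3 (log2 change 1.13 ± 0.20 SE). A member in the immunoglobulin lambda locus IGL, chr22:22730467-22730872, went from 50 and 33 reads to 555 and 547. Its CPM went from 7.29 and 4.73 to 26.4 and 23.2 (log2 change 2.04 ± 0.23 SE). Its 72 h peaks were of low enrichment (1.98 and 1.93), like those of the RNA45SN1 member. One in the imprinted non-coding gene MEG8, chr14:100982613-100983217, went from 30 and 56 reads at 0 h to 78 and 119 at 6 h, then 486 and 575 at 72 h. In CPM these were 4.38 and 8.03, 17.7 and 21.7, then 23.1 and 24.4, so most of its rise was already present at 6 h.

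The weaker the Jun signal of a late region, the more often it lacked an H3K27ac peak. Late Jun regions were ranked by mean 72 h Jun CPM and divided into 5 bins of about equal size. In the lowest bin, with a median CPM of 2.23, 82% had no H3K27ac peak and 5.95% were newly acetylated. In the middle bin (median 4.01) these shares were 61.2% and 17.3%. In the highest bin (median 8.82) they were 24.6% and 52.1%, so newly acetylated regions outnumbered the members there. The share acetylated already at 0 h ran between 3.78% and 5.52% with no such order. The rule used both marks, so these shares are a description.

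**Figure D2:**
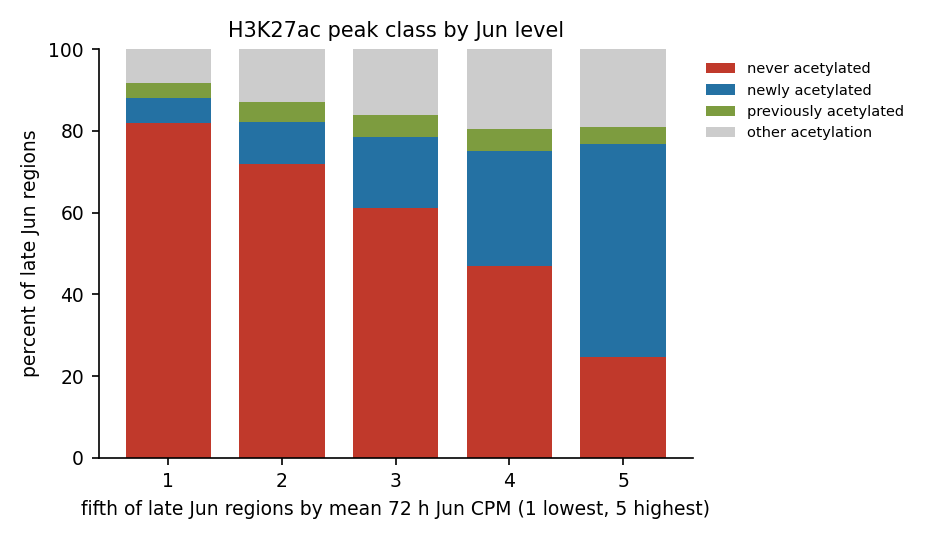
Share of late Jun regions in each H3K27ac peak class, by bin of the mean Jun CPM at 72 h; each bar adds up to all late Jun regions of that bin. The never acetylated share falls from 82% in the lowest bin to 24.6% in the highest while the newly acetylated share grows from 5.95% to 52.1%.

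The absence of a peak was not always an absence of H3K27ac reads. The deposited H3K27ac table lists 2789 regions that overlap 2631 members (12.6%), and 2640 of them overlapped no H3K27ac peak of any library. These 2640 were narrow, with a median width of 243 bp, and their median H3K27ac read counts were 3 and 3 at 0 h, 8 and 9 at 6 h, then 28 and 27 at 72 h. Both 72 h medians lay above the other 4. In CPM the medians went from 0.17 and 0.158 to 1.01 and 0.983, still below the median region of the whole table (3.4 and 3.31 at 72 h). Of 2586 tested, 1914 (74%) were called higher at 72 than at 0 h and 97 (3.75%) lower, against 43.4% and 38.1% of all tested H3K27ac regions. At 6 against 0 h 902 (34.9%) were called higher, near the 32.3% of all, but only 58 (2.24%) lower, against 26.3% of all. The median log2 fold change at 6 h was 1.31 at these regions and 0.20 over all. The H3K27ac peaks of these libraries were part of the choice of members, so these counts are a description. The label never acetylated therefore holds for peaks and not for signal at these members, and the other members lie outside the regions the authors counted.

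A pair of members shows the size of this signal at its strongest, among those without a peak. MICAL2 encodes an enzyme that oxidises actin, and a region upstream of its start, chr11:12126497-12126929, had 40 and 29 H3K27ac reads before PMA, 67 and 115 after 6 h, and 364 and 429 after 72 h. The log2 change to 72 h was 2.93 ± 0.21 (SE), and every late value lay above the earlier ones. The T cell receptor beta locus TRB held the other, chr7:142780049-142780467, with 9 and 16 reads at 0 h, 52 and 63 at 6 h, then 384 and 407 at 72 h. Unscaled Jun reads at the TRB member went from 6 and 11 to 161 and 198. At the MICAL2 member they went from 53 and 55 at 0 h through 42 and 76 at 6 h to 236 and 223 at 72 h. Scaled for depth, its highest Jun library was from 6 h, so Jun there was no clear late gain. Both regions were named after their values were seen.

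Most members lay at some distance from acetylated chromatin. The median distance to the nearest H3K27ac peak of any library was 11609 bp, with quartiles of 4202 and 31268 bp. An H3K27ac peak lay within 1 kb of 1514 members (7.23%) and within 10 kb of 9617 (45.9%), while 3298 (15.8%) were more than 50 kb and 1268 (6.06%) more than 100 kb from one. Among all Jun regions, 73.1% had a peak within 10 kb or on them. The rule bars a peak on a member, so part of the gap between these shares was set by the choice. The share among all Jun regions without an H3K27ac peak was not computed. Regions with Jun at every time and no H3K27ac peak had one within 10 kb in 52.1%. A member in DNM3 (a dynamin), at chr1:172286687-172287703, touched a peak without overlapping it, as did one in NDUFAF6, where the Jun log2 fold change was -0.35. At the other side of that limit, a late Jun region in MAP3K2 at chr2:127302077-127302642 was left out for an overlap of 2 bp. Its Jun reads went from 9 and 12 at 0 h to 74 and 106 at 72 h. In CPM that was from 1.31 and 1.72 to 3.52 and 4.5.

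**Figure D3:**
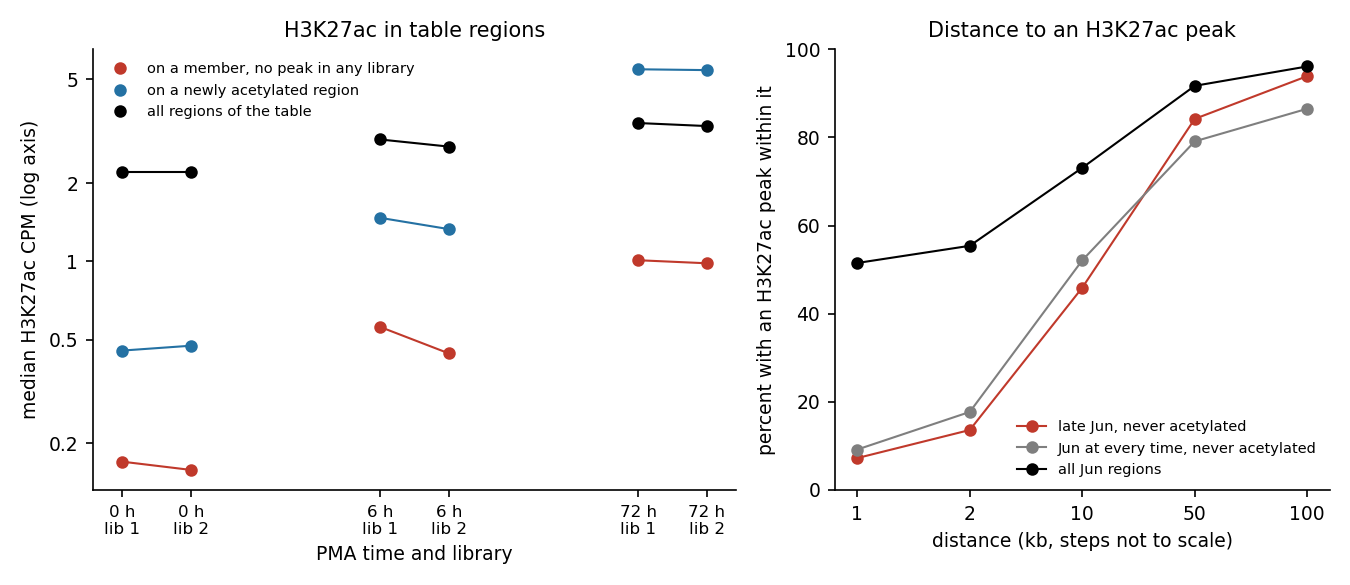
Left, median H3K27ac CPM (log axis) in each library for H3K27ac table regions that overlap a member and carry no peak, for those on newly acetylated regions and for the whole table; right, percent of regions with an H3K27ac peak of any library within the distance shown. On members without a peak the median goes from 0.17 and 0.158 at 0 h to 1.01 and 0.983 at 72 h, and 45.9% of members have a peak within 10 kb. For all Jun regions a peak on the region counts too, which the rule bars for members.

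Around the members the acetyl mark mostly rose with time. Of 18140 H3K27ac regions within 10 kb of a member but not on it, 18015 were tested, and 10222 (56.7%) rose and 4906 (27.2%) fell at 72 against 0 h by edgeR with adjusted p under 0.05. Over all 94865 tested H3K27ac regions 43.4% rose and 38.1% fell. Of those on any Jun region 51.8% rose and 31.1% fell, which is nearer to the shares beside members. Of those within 10 kb of a Jun region but on none, 24.9% rose and 53.2% fell. Regions beside a member may lie on other Jun regions. The median log2 fold change was 1.23 beside members and 0.18 over all. The share that rose was larger within 2 kb (61.1%) and smaller within 50 kb (49.5%). It was 64.5% beside newly acetylated late Jun regions, 27.3% beside previously acetylated ones, and 33.5% beside regions with Jun at every time. At 6 against 0 h, 40.4% of the regions within 10 kb of a member had risen and 19.1% had fallen, against 32.3% and 26.3% over all. A total of 2286 members (10.9%) had a newly acetylated late Jun region within 10 kb, and the part of these in the neighbours' rise was not tested.

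The named neighbours show both directions. In BACE2, which encodes a relative of beta-secretase, the region chr21:41254194-41255549 had 0 and 0 H3K27ac reads at 0 h, 4 and 14 at 6 h, then 1042 and 1201 at 72 h. That is at least 497-fold higher at 72 h, against a floor of 3 reads over both 0 h libraries (adjusted p = 1.57e-18). It lay 2805 bp from a member whose unscaled Jun reads went from 6 and 8 to 319 and 376. In KIRREL3, an adhesion gene of neurons and kidney, chr11:126815812-126818150 lay 270 bp from a member and went from 0 and 0 to 886 and 1040 reads, at least 426-fold. Losses stood beside members too. At THRA, the thyroid hormone receptor alpha gene, chr17:40072785-40073533 fell from 368 and 453 reads to 13 and 9 (log2 fold change -5.79 ± 0.24 SE, adjusted p = 4.5e-17), with a member 8194 bp away. At ZNF385D, a zinc finger gene, chr3:21526715-21527313 fell from 394 and 381 reads to 20 and 9, 4385 bp from a member. All 4 kept their call under each of 13 alternatives.

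Cohesin was rare on the members, and where its reads were counted they rose more often than they fell. Its peaks showed no such rise. Members with a Rad21 peak in both libraries of a time numbered 230 at 0 h and 231 at 72 h (1.1% at each). Among newly acetylated late Jun regions these numbers were 82 and 312. Only 2213 members (10.6%) overlapped a region of the Rad21 table, against 30.7% of newly acetylated late Jun regions, 57.8% of previously acetylated ones and 75.9% of regions with Jun at every time. The median Rad21 CPM on the members was 1.57 and 1.9 at 0 h and 3.42 and 3.39 at 72 h. Of 1933 tested Rad21 regions on members (from 2252), 549 (28.4%) rose and 46 (2.38%) fell at 72 against 0 h by edgeR with adjusted p under 0.05. Over all 83750 tested, 15.4% rose and 7.91% fell, and over those on any Jun region 23.1% and 6.81%. The median log2 fold change was 0.85 on members and -0.05 over all. On newly acetylated late Jun regions 59.2% rose, on previously acetylated ones 5.72%.

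These Rad21 counts were small and depended on depth and on single libraries. The median region on a member held 10 and 9 Rad21 reads at 0 h and 23 and 18 at 72 h. Among Rad21 regions that averaged at least 50 reads, 22 of 208 on members rose (10.6%) against 14.9% of all, and 24 fell, so the excess of rises was in regions of low count. DESeq2 called 185 higher and 5 lower (9.57% against 6.89% of all higher). Without the first 72 h library 168 were called higher (8.03% against 6.32% of all), and without the second 213 (9.86% against 7.05%), so the share on members lay much nearer that of all regions. With total counts as the scale, which moved the median of all Rad21 regions from -0.05 to -0.25, 389 rose and 81 fell.

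Rises in cohesin were more frequent on members without CTCF. Where the Rad21 region overlapped no region of the CTCF table, 426 of 1212 tested (35.1%) rose and 12 fell, with a median log2 fold change of 1.33. Where it did overlap one, 123 of 721 (17.1%) rose and 34 fell, with a median of 0.19. Over the whole Rad21 table the shares were alike, 15.3% without and 15.5% with a CTCF region. The difference between both kinds of member was not tested.

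**Figure D4:**
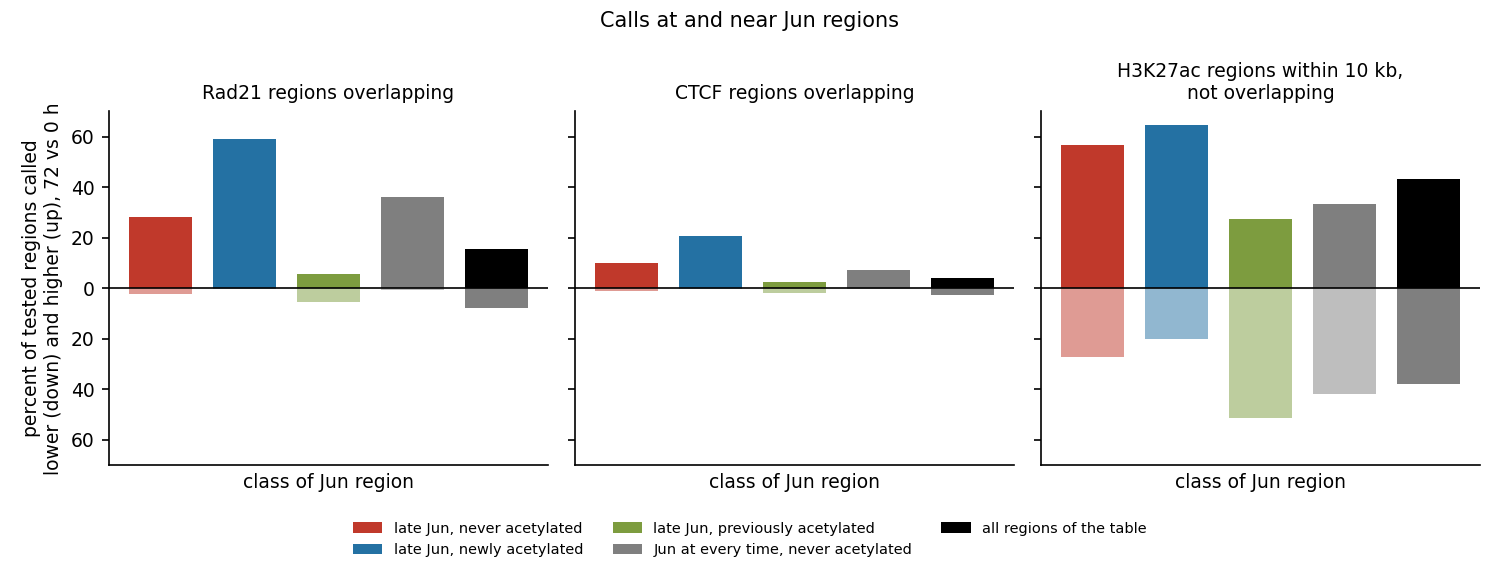
Percent of tested regions called higher (up) or lower (down, paler) at 72 against 0 h by edgeR with adjusted p under 0.05, for Rad21 and CTCF regions on each class of Jun region and for H3K27ac regions within 10 kb of it but not on it; black bars are all tested regions of that table. On members 28.4% of Rad21 regions rose against 15.4% of all, and 9.8% of CTCF regions against 4.07%.

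The Rad21 regions named on members were the called ones with the largest changes, among those with CPM at or above the table's median. Their libraries separate completely by time, which follows largely from that choice. IL4R encodes the alpha chain of the interleukin 4 receptor, and chr16:27315791-27316133, downstream of its start, had 3 and 1 Rad21 reads at 0 h and 55 and 41 at 72 h (log2 fold change 4.39 ± 0.58 SE, adjusted p = 1.61e-05). The member under it went from 22 and 14 Jun reads at 0 h to 55 and 74 at 6 h, then 349 and 359 at 72 h. In TRB, the locus with H3K27ac signal above, chr7:142780090-142780310 went from 5 and 0 Rad21 reads to 48 and 49. In PPFIBP1, which encodes a liprin, chr12:27623597-27623984 went from 6 and 1 to 52 and 55. These 3 stayed called under each of 9 alternatives. Rad21 fell by 1.67 on the log2 scale in COL23A1, a transmembrane collagen gene, at chr5:178417269-178417867, from 61 and 47 reads to 14 and 22 (SE 0.38, adjusted p = 0.00277). It also fell in LOC105371988 (56 and 31 to 13 and 16) and in PDXDC1 (53 and 45 to 20 and 16). Each of the falls lost its call without the first 72 h library, that in LOC105371988 also without the first 0 h library and with DESeq2, and that in PDXDC1 also without the second 72 h library. Unscaled Jun reads under the COL23A1 region numbered 27 and 24 before PMA, then 83 and 94 by the last time point. The late Jun libraries were the deepest, and scaled for depth Jun there was about level between 0 and 72 h.

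**Figure D5:**
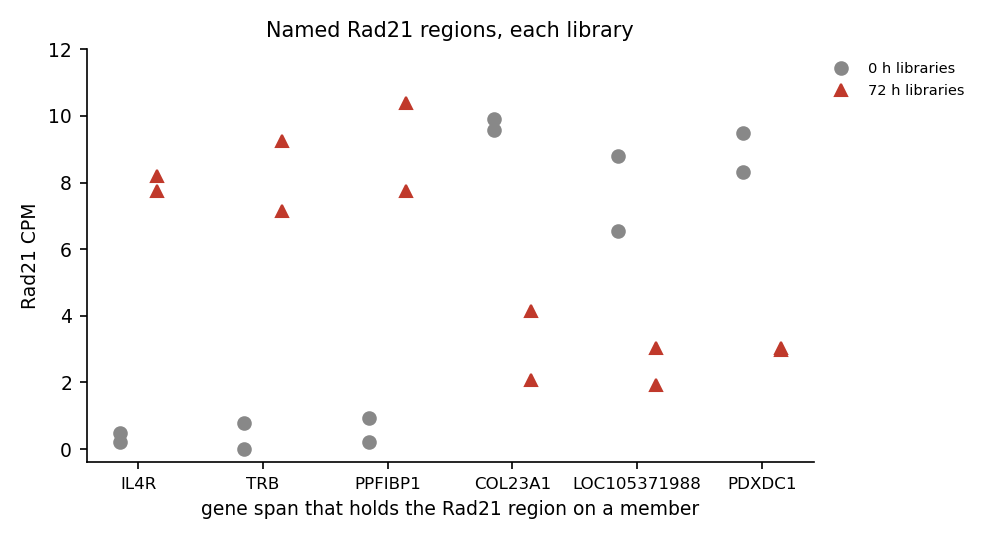
Rad21 level (CPM) in each of the 4 Rad21 libraries at the 6 named Rad21 regions on members, 3 with the largest rise and 3 with the largest fall; circles are 0 h libraries and triangles 72 h libraries. At IL4R, TRB and PPFIBP1 every 72 h value is above 7 CPM and every 0 h value below 1 CPM.

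CTCF was rarer still, and few changes were called. A CTCF table region lay on 1369 members (6.54%), against 11.9% of newly acetylated late Jun regions, 20.4% of all Jun regions and 59.1% of regions with Jun at every time. Of the members, 18084 (86.4%) overlapped neither a CTCF nor a Rad21 region, compared with 65.5%, 61.5% and 21.7% in the same order. The median CTCF CPM on members was 5.1 and 5.41 at 0 h, 6.15 and 6.1 at 6 h, then 7.83 and 8.15 at 72 h. Of 1245 tested, 122 (9.8%) rose and 14 (1.12%) fell at 72 against 0 h, against 4.07% and 2.72% of all 58156 tested, and 7.34% and 2.3% of those on any Jun region. At 6 against 0 h, 11 rose and 2 fell, or 0.884% and 0.161%, against 2.33% and 0.325%. By edgeR the count of rises at 72 h was 2 without the first 0 h library, 0 without the second (298 at an unadjusted p under 0.05), 17 without the first 72 h library and 16 without the second, and 261 and 266 without the first or second 6 h library. DESeq2 called 34. With total counts as the scale, which moved the median of all CTCF regions from 0.03 to 0.26, 297 rose (23.9%, against 11.3% of all).

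Among called CTCF regions on members whose CPM reached the table's median, the 2 largest rises lay in genes. In the non-coding gene LINC01104, chr2:100237281-100238163 had 7 and 9 CTCF reads at 0 h, 15 and 20 at 6 h, then 62 and 126 at 72 h (log2 fold change 2.71 ± 0.43 SE, adjusted p = 0.00454). In COL27A1, a fibrillar collagen gene, chr9:114201126-114201569 went from 10 and 9 to 85 and 108 (2.58 ± 0.39 SE, adjusted p = 0.00321). Both lost the call when either 0 h library was left out. CTCF fell by 1.25 on the log2 scale at TRIB1, a pseudokinase gene on chromosome 8, from 159 and 111 reads at 0 h through 29 and 22 at 6 h to 83 and 107 at 72 h (SE 0.25, adjusted p = 0.0121). Its lowest libraries were those of 6 h. That call was lost when any 0 h or 72 h library was left out and when only regions averaging at least 50 reads were tested. The other of the 2 largest falls, at chr1:26396207-26396566 outside any gene span, went from 55 and 36 reads at 0 h through 27 and 24 to 27 and 37 at 72 h, or by -1.25 ± 0.34 SE on the log2 scale (edgeR, adjusted p = 0.0367). In CPM it went from 14 and 13 at 0 h through 8.74 and 9.76 at 6 h to 6.22 and 5.2 at 72 h. It was called in 6 of 12 alternatives.

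The members were mostly far from gene starts. The promoter table holds nothing for chromosome 8. Of the 19907 members on the other chromosomes, 615 (3.09%) had a start within 1 kb, against 10.6% of all Jun regions and 34% of previously acetylated late Jun regions. The median distance was 27498 bp, close to that of newly acetylated regions (27347 bp). At the nearest start, 66.6% of members had no H3K27ac peak shared by both libraries at 0 or at 72 h, 24.6% had one at both times and 7.03% at 72 h only. The last share was 7.2% over all Jun regions, so near that of members, and 12% for newly acetylated ones. Gene spans held 63.7% of members and spans of protein-coding genes 49.3%, against 67.5% and 53.9% of all Jun regions. The gene table gives spans without exons or introns. By chromosome, members made up between 11.3% (chromosome 19) and 17.8% (chromosome 18) of Jun regions.

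The genes with the most members were long ones. In all, 5091 of 19970 protein-coding genes (25.5%) held at least 1 member. The immunoglobulin lambda locus IGL held the most, 40 of its 160 Jun regions, followed by RBFOX1, a splicing regulator of neurons, with 36 of 89. KAZN, which encodes a protein of cell junctions, held 30 of 126, RPS6KA2, a ribosomal S6 kinase, 25 of 66, and ASIC2, an acid-sensing ion channel, 21 of 73. PRKCE, the epsilon isoform of protein kinase C and itself a target of PMA, held 20 of 64. CAMTA1, a calmodulin-binding transcription activator, and CAST, the calpain inhibitor calpastatin, held 19 each. Over all gene spans 14.3% of Jun regions were members, so RBFOX1 (40.4%) and RPS6KA2 (37.9%) were above that share and CAMTA1 (20%) nearer to it. The start of RBFOX1, KAZN, RPS6KA2 and ASIC2 had no shared H3K27ac peak at 0 or 72 h, while PRKCE had one at 72 h only. Copy number, which differs along K562 chromosomes, was not measured here.

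Lists of erythroid and megakaryocyte genes held few members, and lists of neuronal and matrix genes held more. The rule asks for no H3K27ac peak, and the share of Jun regions without one ran in a similar way, at 20% in the erythroid list, 47.1% in the megakaryocyte list, 66.2% in the matrix list and 73.4% in the neuronal list. Among 20 erythroid genes, the program K562 partly expresses, 1 of 40 Jun regions was a member (2.5%), in BCL11A, a repressor of fetal globin. Among 24 megakaryocyte and platelet genes it was 13 of 138 (9.42%), with 3 in RUNX1, a regulator of megakaryocytes, and 2 in CD9, a platelet tetraspanin. AP-1 subunit genes had 4 of 51, of which 2 in ATF3. Integrin and cytoskeleton genes had 38 of 246 (15.4%), led by TNS3, a tensin of focal adhesions (10), and MYLK, the myosin light chain kinase (7). Protein kinase C and other PMA receptor genes had 55 of 296 (18.6%), and very long genes of common fragile sites 69 of 399 (17.3%), of which 16 in AUTS2. Collagen and matrix genes had 34 of 136 (25%), with 8 of the 14 Jun regions of LAMC1, the laminin gamma 1 gene. Neuronal adhesion, synapse and channel genes had 100 of 387 (25.8%). These shares are descriptions beside the 14.3% over all gene spans, and regions of a gene are not independent.

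The whole series bears on these values in a few ways. Reads in regions totalled 4766421 to 18883962 per Jun library, 12634261 to 27266241 for H3K27ac, 2553677 to 6068421 for CTCF and 4398797 to 7285286 for Rad21, with the 72 h Jun libraries the deepest of their antibody. Libraries of a group differed by more than counting noise (chi-square per degree of freedom of 2.15 to 6.74), so none repeats another. Of 20 listed erythroid genes, 11 carried an H3K27ac peak shared by both libraries in their span at 0 h, and 11 at 72 h. The share over all genes was not set beside these counts, so they are no check of the cell line. In the authors' deposited table, members classed downEarly or downLate have positive median log2 fold changes at 72 h (2.36 and 2.43), so the class names do not follow that table's own fold changes and were not used.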

How the data were processed

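Members, gene lists and tests were chosen with earlier results of these data known. The 4 region tables hold the authors' deposited raw read counts per region and library, with the authors' log2 fold changes, adjusted p-values and class labels, per the file headers. The 22 deposited narrowPeak lists, 1 per library, give each peak's fold enrichment (a ratio) and its p-value and q-value as −log10, all the authors' own and used here only to describe or filter peaks. The submitters' processing notes name Trim Galore 0.4.3, BWA 0.7.17, SAMtools 1.9, deepTools 3.0.1, MACS2 and bedtools 2.26 and the builds hg19 and hg38, with no role or order. Regions on chromosome 20 reach beyond its end in hg19, so coordinates are taken as GRCh38 (hg38) and printed 1-based.

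Counts were fitted per antibody over all its libraries with edgeR 4.0.16 (R 4.3.3): filterByExpr, TMM, glmQLFit and glmQLFTest on time, Benjamini-Hochberg over the whole table, called under 0.05. SE is the log2 fold change divided by the square root of F. The fit was tested on simulated counts. CPM uses TMM library sizes. Overlaps need 1 bp. Distances run from edge to edge, and gene spans and start sites are RefSeq's. Folds from 0 use a floor of 3 reads over the group, which covers counting error only.

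Regions named were the 5 strongest members, those nearest each limit of the rule, and, among called regions with CPM at or above the table's median, the 3 largest and smallest Rad21 changes and the 2 of CTCF and of H3K27ac within 10 kb, then the 8 genes and the 3 windows of 100 kb with most members and the 2 leading genes of each of 8 lists. Others are said to be named after their values were seen.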

Additional observations from a re-analysis of the deposited data

How the results depend on the processing

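The number of members was 25206 with an overlap of at least 0.5 of the region, of which 16693 were shared (66.2% of that set and 79.7% of the main one). It was within 1.5 times the main number too with a −log10 q of at least 5 (17422), acetylation in both libraries (25263) or no H3K27ac peak within 1 kb (19423), and ran from 27766 to 32653 without the second or first 72 h Jun library. The share of members with AP-1 letters in windows of the genome was not run, for want of a genome. Rad21 at members (549 higher, 46 lower) gave 81 lower with total counts, 185 and 5 with DESeq2, 29 lower with no filter on low counts, 22 and 24 among regions averaging 50 reads or more, and, leaving out each library in turn, 168 to 565 higher and 5 to 45 lower. CTCF at 72 h (122 and 14) gave 297 and 1 with total counts, 34 and 3 with DESeq2, 25 and 0 (32 lower at an unadjusted p under 0.05 by edgeR) at 50 reads or more, 300 and 65 with only the 2 time points compared, and 0 to 266 higher and 0 to 62 lower leaving out each library. CTCF at 6 h (11 and 2) gave 4 lower with total counts, 5 higher with DESeq2, 1 higher at 50 reads or more, 7 higher with only the 2 time points, and 0 to 17 higher and 0 to 6 lower leaving out each library. H3K27ac within 10 kb (10222 and 4906) gave 5630 higher at 50 reads or more, fewer regions being tested, and 2374 and 920 within 2 kb, 27793 and 18417 within 50 kb, where the area differs. The cause of the other shifts was not tested.

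Replicate numbers did not pair the libraries: same-numbered libraries deviated together with Pearson's r of -0.022 to 0.124 over regions. With the replicate block, CTCF regions at members gave 184 higher and 41 lower at 72 h and 14 and 4 at 6 h, Rad21 587 and 53, and H3K27ac within 10 kb 10151 and 4881. Scaling by total counts put the Jun table's median log2 change at 0.73 in place of 0.17, and that of H3K27ac at 0.42 in place of 0.18. Median counts per library at members of 23 reads or fewer for Rad21 limit the precision of its values.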

Other observations

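Genes with many members differed in the H3K27ac peaks of their span. Such peaks numbered 42125 and 42852 in the 0 h libraries and 65267 and 66147 in the 72 h libraries over the whole genome, and whether gains in these genes exceed those of other long genes was not tested. RBFOX1 had 0 H3K27ac peaks shared by both libraries in its span at 0 h and 12 at 72 h, KIRREL3 had 0 and 11, PTPRM 0 and 24, and HIVEP3, a zinc finger regulator, 0 and 30, beside 36, 16, 19 and 18 members. KAZN went from 20 to 35 such peaks and CAMTA1 from 3 to 35. Others gained few. CAMK1D, a calmodulin-dependent kinase gene, had 14 members among 30 Jun regions and went from 0 to 2 H3K27ac peaks, and PLXNA4, a semaphorin coreceptor gene, had 15 among 32 and went from 0 to 3. TENM4, a teneurin of cell adhesion, had 16 among 33 Jun regions (48.5%) and went from 0 to 5. These genes were named after their values were seen, from the 40 genes with the most members.

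Most members stood apart from each other. The median gap to the nearest other member was 23260 bp, and another lay within 10 kb of 5751 members (27.5%). Of 11484 windows of 100 kb with a member, 368 held 5 or more. These spacings were not set against those of other Jun regions. The fullest window, over MATN2 (a matrilin of the matrix) on chromosome 8, held 10 members among 15 Jun regions. Its H3K27ac peaks numbered 0 in each 0 h and 6 h library and 3 in each 72 h library. The window chr1:53500001-53600000 in GLIS1, a zinc finger gene, held 9 members among 13 Jun regions and a single H3K27ac peak in 1 of the 6 libraries. The window chr1:235500001-235600000, over the glycosyltransferase gene B3GALNT2 and the G protein gene GNG4, held 9 among 14, beside 2 and 2 H3K27ac peaks at 0 h and 6 and 7 at 72 h.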
